A study of Mus musculus with 6 samples.

Results

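Transcript levels of the MEF2 transcription factors and the class IIa histone deacetylases (HDACs) were examined in bulk RNA-Seq of mouse gastrocnemius/plantaris (GP) muscle. These 7 genes, Mef2a, Mef2c, Mef2d, Hdac4, Hdac5, Hdac7 and Hdac9, were taken by exact match of their symbols from count tables of 24421 genes. The rule uses no measured value, but the genes were chosen with earlier results of these data known. The series compared muscle with and without deletion of Net39, a protein of the inner nuclear membrane, to profile the transcriptional consequences of its loss in the adult. By their labels, the 3 Ctrl libraries are from mice with floxed Net39 alleles and no Cre (Net39 fl/fl), and the 3 cKO libraries are from HSA-CreERT2 mice with the same floxed alleles. All 6 mice were male, had received tamoxifen, and were analyzed at 5 months of age, 3 months after tamoxifen. Per the paper, the floxed allele was made in B6C3F1 zygotes, and the edited mice were bred with C57BL/6N mice. The human skeletal actin promoter directs the inducible Cre to skeletal muscle fibres, and not to satellite cells or the heart.

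MEF2 proteins bind an A/T-rich element in the control regions of genes for contraction, metabolism and muscle differentiation. Class IIa HDACs bind MEF2 and hold its target genes in a repressed state, mostly through partner corepressors, because their own catalytic domains have little deacetylase activity. Kinases that respond to calcium or energy state, among them the CaM kinases, protein kinase D and AMPK, phosphorylate these HDACs, which 14-3-3 proteins then retain outside the nucleus so that MEF2 can act. In skeletal muscle, MEF2 activity is tied to slow and oxidative fibre genes, and HDAC4 and HDAC5 are known for their part in the response to denervation.

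The targeted gene went against the labels. Net39, listed under its older symbol Ppapdc3, had 310, 321 and 217 counts in the Ctrl-labelled libraries and 5365, 4340 and 6080 counts in the cKO-labelled ones. On the TMM-normalized scale of counts per 1000000 counts of a library (CPM), these were 7.92, 7.75 and 5.93 against 151, 113 and 138, a log2 difference of 4.22 ± 0.165 (SE; edgeR's quasi-likelihood test with Benjamini-Hochberg adjustment, adjusted p = 0.000161). The loxP sites flank its first exon and the counts are per gene, so they do not separate deleted from retained exons. Groups were kept as the labels give them, and each direction below is a statement on the library labels, not on the presence of Net39.

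Total counts were 33860001 to 38201728 in the Ctrl-labelled libraries and 39191239 to 48839910 in the cKO-labelled ones, and 14180 genes passed the filter on low counts. TMM scaling factors were 1.08 to 1.11 against 0.865 to 0.983, so the scaling moves every gene: over all genes tested, log2 fold changes had a median of -0.02 with TMM and -0.27 with total counts alone. Summed CPM of 8 skeletal fibre markers was 96333 to 118937 against 149351 to 198190, with 5 of 8 higher and 1 lower in cKO-labelled libraries by edgeR's test, and that of 10 slow fibre markers was 9068 to 15533 against 553 to 4133, with 5 of 10 lower, where 12.6% of all genes tested passed as higher and 11.8% as lower. Summed CPM was 152 to 175 against 67.5 to 99.7 for 8 tested immune markers (5 lower in cKO-labelled libraries), and 445 to 467 against 354 to 384 for 6 smooth muscle and pericyte markers (3 lower). It was 486 to 510 against 454 to 476 for 9 endothelial markers, whose adjusted p in edgeR ran from 0.0808 to 0.932. In bulk tissue, fewer cells of a type and less RNA per cell cannot be told apart.

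All 7 genes passed the filter on low counts. The gene for the remaining MEF2 factor, Mef2b, had 1 to 3 counts in every library and was not tested. Divided by the length of their merged exons, the levels followed the order Mef2c, Mef2d, Hdac5, Mef2a, Hdac7, Hdac4 and Hdac9 in 5 of 6 libraries, and in the library labelled cKO 2 Mef2a (13.8 CPM per kb) stood above Hdac5 (12.1 CPM per kb). Mef2c, the MEF2 factor of early muscle and heart development, had the highest level, at 63.7 ± 5.52 CPM per kb in Ctrl-labelled libraries and 54.4 ± 4.16 in the cKO-labelled ones (SD, n = 3 per group). Mef2d followed at 29.5 ± 1.13 and 30 ± 2.1 CPM per kb. Hdac5 was at 16.0 ± 1.26 and 13.8 ± 1.49 CPM per kb, and Mef2a at 10.4 ± 2.20 and 14 ± 0.182. These neighbours overlapped in the cKO-labelled libraries and were apart in the Ctrl-labelled ones. The other deacetylases were far lower per length, with Hdac7 at 5.78 ± 0.460 and 4.39 ± 0.274, Hdac4 at 1.62 ± 0.205 and 1.51 ± 0.158, and Hdac9 at 0.752 ± 0.197 and 0.616 ± 0.261 CPM per kb. The order of Hdac4 and Hdac9 depended on the length used: with the transcript of the longest coding sequence, chosen after seeing the data, they were at 3.16 and 3.44 CPM per kb in Ctrl-labelled libraries and at 2.95 and 2.82 in cKO-labelled ones.

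The 3 MEF2 genes are paralogs, and their coding sequences begin with the DNA-binding MADS and MEF2 domains, where they are most alike. The first 30 coding bases are shown in lower case because every result below rests on reads being assigned to the right paralog (GENCODE M21 transcripts, GRCm38, 5′ to 3′).
Mef2a: atggggcgaaagaagatacaaatcacacgc
Mef2c: atggggagaaaaaagattcagattacgagg
Mef2d: atggggaggaaaaagattcagatccagcga
Of these 30 bases, 22 were identical between Mef2a and Mef2c, 21 between Mef2a and Mef2d and 24 between Mef2c and Mef2d. Over the first 258 coding bases, the identity was 81% for Mef2a and Mef2c, 77.5% for Mef2a and Mef2d and 83.7% for Mef2c and Mef2d. The longest run of bases that Mef2c and Mef2d transcripts share without a mismatch is 28 bases long, at coding bases 197 to 224 of both.
Mef2c and Mef2d shared run: tgctcaagtacaccgagtacaacgagcc
Mef2a shared at most 17 bases with Mef2c and 16 with Mef2d. Among the class IIa HDACs the longest shared runs were 16 bases (Hdac7 and Hdac9) to 36 bases (Hdac5 and Hdac7). Each of these runs is shorter than one sequenced read.

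Of the 7 genes, 1 passed edgeR's test at an adjusted p under 0.05 (Hdac7), against a background of 24.4% of all genes tested. None of the 7 passed with a fold change over 2, against a background of 6.05% of all genes tested (2.13% higher and 3.92% lower in cKO-labelled libraries), and under 15 alternatives their log2 fold changes ran from -0.69 to 0.63. The groups did not overlap in CPM for 3 of the 7, higher in cKO-labelled libraries for Mef2a and higher in the Ctrl-labelled ones for Mef2c and Hdac7, against 43.9% of all genes tested. The absolute log2 fold changes of the 7 ran from 0.02 to 0.44 with a median of 0.23, beside a median of 0.27 over all genes tested. The self-test on simulated counts recovered 58 of 100 genes changed by 1 on the log2 scale, so a difference of the size seen here can be missed with 3 mice per group.

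**Figure D1:**
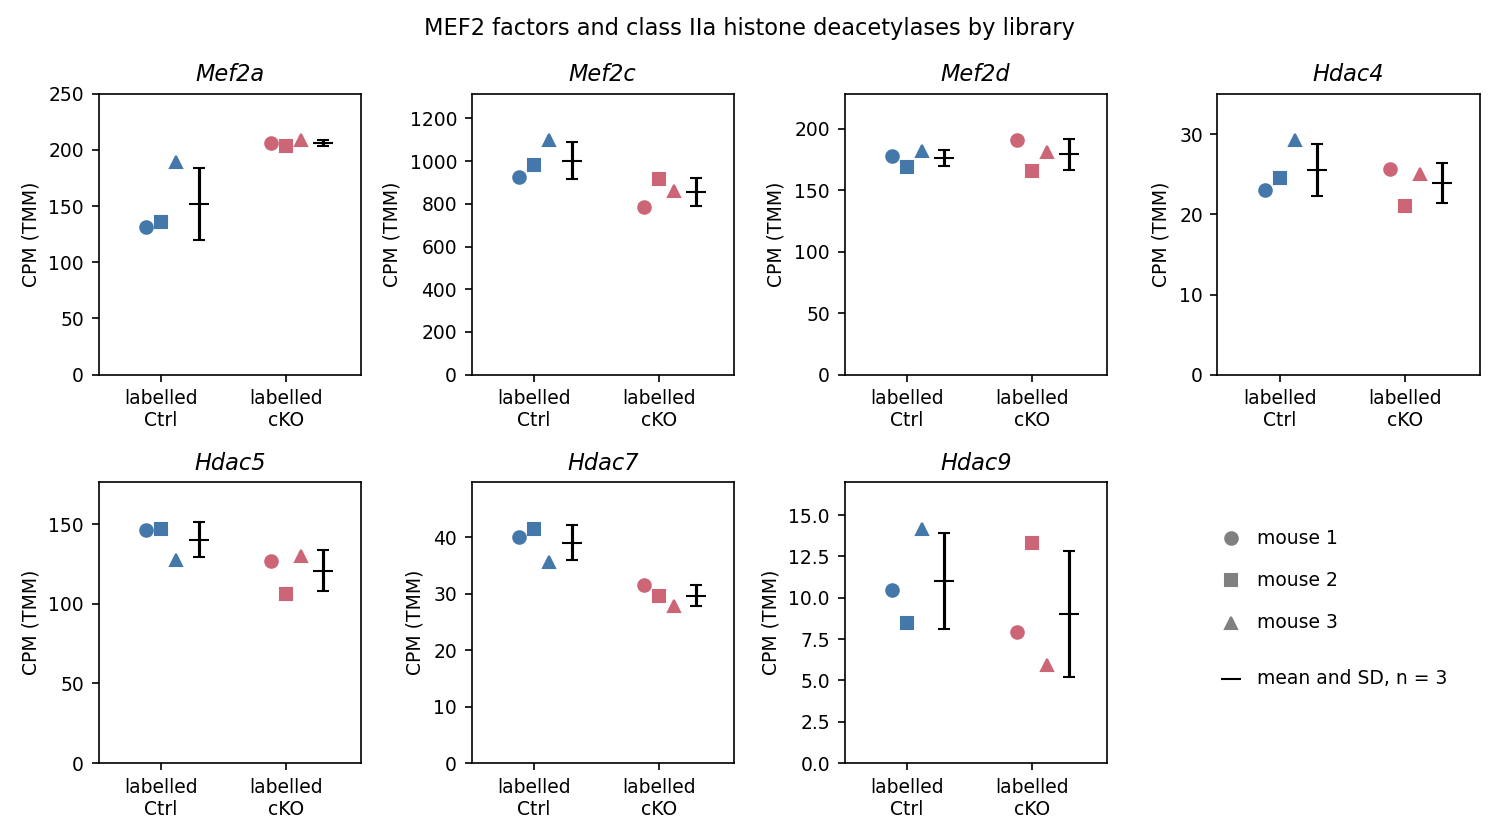
TMM-normalized CPM (y axis, linear and from 0) of each of the 7 genes in the 3 Ctrl-labelled libraries and the 3 labelled cKO, with the mean and SD of each group drawn beside the points; the same symbol marks the same mouse number. The points of the groups do not overlap for Mef2a, Mef2c and Hdac7, and Hdac9 spreads most within the cKO-labelled libraries.

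Mef2a, a MEF2 factor expressed widely and linked to muscle regeneration and the adult heart, was at 131, 136 and 189 CPM in the Ctrl-labelled libraries and at 206, 203 and 208 CPM in the cKO-labelled ones. The groups did not overlap, and Ctrl 3 stood between Ctrl 1 and Ctrl 2 on the one side and the 3 cKO-labelled libraries on the other. The spread was unequal, with a coefficient of variation of 21.2% in Ctrl-labelled libraries and 1.30% in the cKO-labelled ones. The log2 fold change was 0.44 ± 0.145 (SE, 95% interval 0.10 to 0.78), or 1.35-fold higher in cKO-labelled libraries, and did not pass edgeR's quasi-likelihood test (adjusted p = 0.0659). An exact two-sided permutation test gave p = 0.1, the smallest that 3 against 3 allows. Ctrl 3 decided the call: without it the log2 fold change was 0.63 (edgeR, adjusted p = 0.00529). DESeq2's Wald test gave 0.45 with an adjusted p of 0.0228, and edgeR with total counts alone gave 0.19 with an adjusted p of 0.334. Relative to the median of all genes, the log2 difference was 0.45 under TMM and under total counts alike. The gene lies on the minus strand of chromosome 7 (67231163 to 67372858, GRCm38), and 2.06% of its exon bases overlap Lysmd4 on the other strand.

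Mef2c was at 928, 980 and 1100 CPM in the Ctrl-labelled libraries and at 787, 918 and 861 CPM in the cKO-labelled ones. All 3 Ctrl-labelled libraries were higher, but Ctrl 1 and cKO 2 stood close together. The log2 fold change was -0.23 ± 0.109 (SE, 95% interval -0.48 to 0.03), which did not pass edgeR's quasi-likelihood test (adjusted p = 0.169), and the exact two-sided permutation test gave p = 0.1. With total counts alone, the value was -0.48 and passed edgeR's test (adjusted p = 0.0265), while the log2 difference from the median of all genes was -0.21 under both scalings. Mef2c lies on the plus strand of chromosome 13 (83504034 to 83667080, GRCm38), and its exons overlap no other annotated gene.

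Mef2d, the third MEF2 factor of adult muscle, was at 178, 169 and 182 CPM in the Ctrl-labelled libraries and at 191, 166 and 181 CPM in the cKO-labelled ones. The groups overlapped, with the highest and the lowest of all 6 values in cKO-labelled libraries. The log2 fold change was 0.02 ± 0.0838 (SE, 95% interval -0.17 to 0.22; edgeR, adjusted p = 0.855), and the exact two-sided permutation test gave p = 0.8. It was -0.0033 without Ctrl 2, -0.03 without cKO 1 and -0.23 with total counts alone (edgeR, adjusted p = 0.0462), a scaling that moves all genes: relative to their median, the log2 difference was 0.04 under both scalings. Mef2d lies on the plus strand of chromosome 3 (88142372 to 88172086), and 8.87% of its exon bases overlap the antisense gene 1700113A16Rik, whose reads cannot be told apart from those of Mef2d where the counting does not use strand.

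Because ratios of genes within a library do not depend on how libraries are scaled, the MEF2 genes were also set against each other. The ratio of Mef2c to Mef2a, per length, was 6.61, 6.75 and 5.42 in the Ctrl-labelled libraries and 3.57, 4.22 and 3.86 in the cKO-labelled ones. The groups did not overlap, and the mean log2 ratio was lower by 0.69 in cKO-labelled libraries (2.64 ± 0.175 against 1.95 ± 0.121, SD, n = 3 per group, not tested). The ratio of Mef2a to Mef2d was 0.301, 0.327 and 0.423 against 0.440, 0.499 and 0.469, again without overlap. The ratio of Mef2c to Mef2d overlapped between the groups, at 1.99, 2.21 and 2.29 against 1.57, 2.11 and 1.81. Of the summed MEF2 level per kb, Mef2c made up 60.5%, 62.5% and 61.7% in Ctrl-labelled libraries and 52.2%, 58.4% and 55.2% in the cKO-labelled ones. Mef2a made up 9.15%, 9.25% and 11.4% against 14.6%, 13.8% and 14.3%. The share of Mef2d overlapped between the groups, at 26.9% to 30.4% against 27.7% to 33.2%. The sum over the 3 factors overlapped as well, at 97.6, 99.8 and 113 CPM per kb in Ctrl-labelled libraries and 96.0, 99.9 and 99.3 in the cKO-labelled ones.

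**Figure D2:**
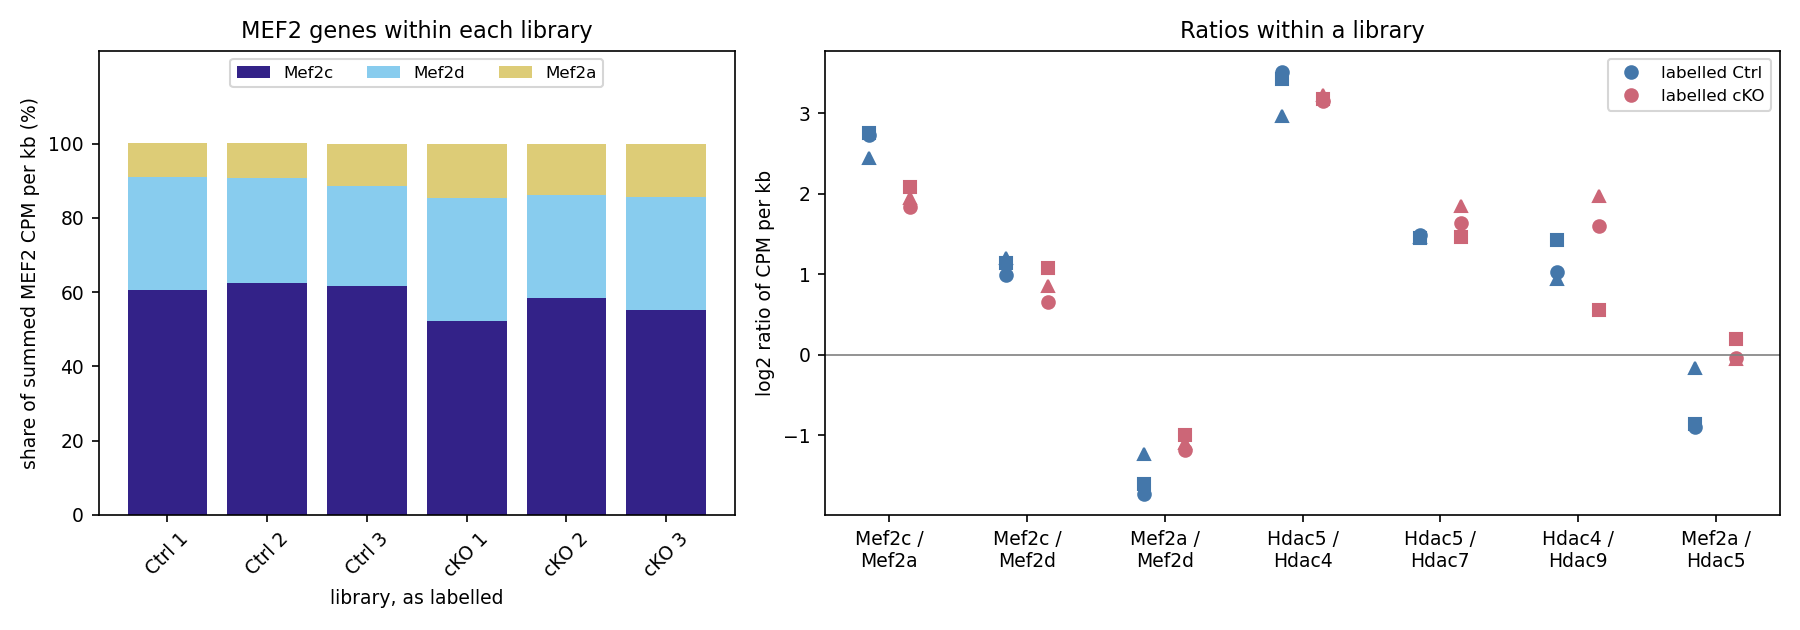
Left, share of the summed MEF2 level per kb (y axis, percent) taken by Mef2c, Mef2d and Mef2a in each of the 6 libraries; right, log2 ratios of CPM per kb within each library (y axis) for the 7 pairs of genes compared, with 1 point per library. Mef2a takes 9.15% to 11.4% in Ctrl-labelled libraries and 13.8% to 14.6% in the cKO-labelled ones, and the groups overlap in 4 of the 7 ratios and are apart in the 3 that include Mef2a.

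Hdac5, the class IIa HDAC with the highest level here and a brake on MEF2 that CaM kinases and protein kinase D release, was at 146, 147 and 127 CPM in the Ctrl-labelled libraries and at 127, 106 and 130 CPM in the cKO-labelled ones. The groups overlapped through Ctrl 3 and cKO 3 alone, and cKO 1 (126.9 CPM) was just below Ctrl 3 (127.4 CPM). Its log2 fold change was -0.21 ± 0.107 (SE, 95% interval -0.46 to 0.04) and did not pass edgeR's quasi-likelihood test (adjusted p = 0.185), with p = 0.2 in the exact two-sided permutation test. With total counts alone it was -0.47 (edgeR, adjusted p = 0.0112), and the log2 difference from the median of all genes was -0.20 with TMM and -0.21 with total counts. Hdac5 lies on the minus strand of chromosome 11 (102194432 to 102230166), with 1.26% of its exon bases shared with the microRNA gene Mir8101.

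Hdac7, known for its roles in endothelial cells and developing T cells, was at 40.1, 41.5 and 35.6 CPM in the Ctrl-labelled libraries and at 31.5, 29.6 and 27.8 CPM in the cKO-labelled ones. Every library labelled Ctrl was above every library labelled cKO. The log2 fold change was -0.40 ± 0.0879 (SE, 95% interval -0.61 to -0.19), or 1.32-fold higher in Ctrl-labelled libraries, and passed edgeR's quasi-likelihood test (adjusted p = 0.019), where 11.8% of all genes tested passed in this direction. The exact two-sided permutation test gave p = 0.1. The call was lost in edgeR without Ctrl 1 (log2 fold change -0.38, adjusted p = 0.0724), without Ctrl 2 (-0.35, adjusted p = 0.0688), without cKO 3 (-0.37, adjusted p = 0.0725) and in a test against a fold change of 1.2 (adjusted p = 0.139), and the direction held in each. The endothelial, immune and smooth muscle marker sums given above were also lower in cKO-labelled libraries, and their part in the Hdac7 difference was not tested. Log2 fold changes had a median of -0.08 over the 9 endothelial markers (-0.24 to 0.17), -0.89 over the 8 immune markers tested (-1.12 to -0.64) and -0.36 over the 6 smooth muscle and pericyte markers (-1.33 to -0.07), beside -0.40 for Hdac7. Hdac7 lies on the minus strand of chromosome 15 (97792664 to 97844502), and 0.429% of its exon bases overlap Slc48a1 on the other strand.

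Hdac4, which represses Dach2 and Mef2-dependent genes in denervated muscle, was at 23.0, 24.5 and 29.2 CPM in the Ctrl-labelled libraries and at 25.7, 21.1 and 25.0 CPM in the cKO-labelled ones. The groups overlapped. Its log2 fold change was -0.10 ± 0.121 (SE, 95% interval -0.38 to 0.19; edgeR, adjusted p = 0.593), with p = 0.6 in the exact two-sided permutation test, and it was 0.01 without Ctrl 3 and -0.36 with total counts alone (edgeR, adjusted p = 0.0378). Relative to the median of all genes, it was -0.08 with TMM and -0.09 with total counts. Hdac4 lies on the minus strand of chromosome 1 (91928779 to 92195699), and 22.4% of its exon bases overlap the lincRNA gene Gm26720 on the other strand, so its level is uncertain where the counting does not use strand.

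Hdac9, a MEF2 target as well as a MEF2 repressor and known to change with innervation, was at 10.4, 8.47 and 14.2 CPM in the Ctrl-labelled libraries and at 7.90, 13.3 and 5.91 CPM in the cKO-labelled ones. It varied most of the 7 between mice, with a coefficient of variation of 26.2% and 42.3% and a ratio of highest to lowest library of 1.67 and 2.25. For Hdac9 the log2 fold change was -0.29 ± 0.314 (SE, 95% interval -1.03 to 0.45; edgeR, adjusted p = 0.536), with p = 0.5 in the exact two-sided permutation test. Single libraries moved it from -0.07 to -0.69, the latter without cKO 2. In the cKO-labelled libraries, Hdac9 was highest in cKO 2, then cKO 1, then cKO 3, the same order as the summed slow fibre markers (4133, 2175 and 553 CPM). That order was not shared in the Ctrl-labelled libraries, where Hdac9 was highest in Ctrl 3 and the slow fibre markers were highest in Ctrl 1. Hdac9 lies on the minus strand of chromosome 12 (34047580 to 34917095), with no exon overlap with another gene.

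Within the summed class IIa HDAC level per kb, Hdac5 was at 66.1% ± 1.65 in Ctrl-labelled and 67.7% ± 3.13 in cKO-labelled libraries, Hdac7 at 24.0% ± 0.626 and 21.7% ± 1.90, Hdac4 at 6.76% ± 1.25 and 7.45% ± 0.276, and Hdac9 at 3.15% ± 1.01 and 3.11% ± 1.54 (SD, n = 3 per group), and the share of each overlapped between the groups. Their sum did not overlap, at 24.7, 25.0 and 22.6 CPM per kb in Ctrl-labelled libraries and 21.3, 18.7 and 20.9 in the cKO-labelled ones. Of single genes tested, 43.9% did not overlap either. Across the families, the ratio of Mef2a to Hdac5 per length was 0.537, 0.552 and 0.888 in Ctrl-labelled libraries and 0.971, 1.15 and 0.961 in the cKO-labelled ones. Ctrl 3 was nearest to the cKO-labelled libraries, and the groups did not overlap. Within the HDAC family, the ratio of Hdac5 to Hdac4 overlapped, at 11.4, 10.8 and 7.85 against 8.89, 9.05 and 9.35. So did the ratio of Hdac5 to Hdac7, at 2.80, 2.72 and 2.75 against 3.10, 2.75 and 3.59, and that of Hdac4 to Hdac9, at 2.04, 2.68 and 1.91 against 3.02, 1.47 and 3.92. Of the 7 ratios computed, 3 did not overlap between the groups, each with Mef2a in it. These 3 rest on the same Mef2a values, and no share over other pairs of genes was computed.

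**Figure D3:**
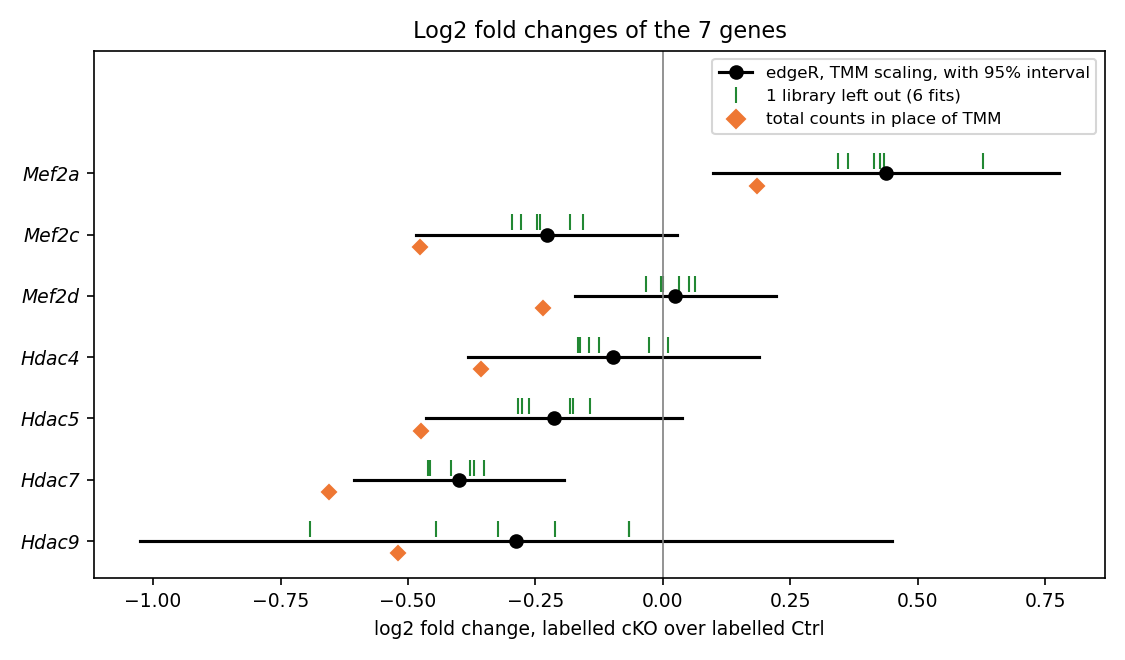
Log2 fold change of each gene (x axis, labelled cKO over labelled Ctrl) from edgeR with TMM scaling and its 95% interval (black), from each of the 6 fits with 1 library left out (green ticks) and with total counts in place of TMM (orange). The intervals of Mef2a (0.10 to 0.78) and Hdac7 (-0.61 to -0.19) lie to one side of 0, and total counts move every gene to the left.

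The promoters of the 7 genes were searched for the MEF2 consensus, the A/T-rich element that MEF2 proteins bind, on both strands of windows from 250 bases before to 50 bases after each annotated start (RefSeq, GRCm38.p6). The 13 windows of the 7 genes held 2 matches, one at Mef2a and one at Hdac5. Both are shown with 10 bases on either side and the element in capitals, read on the gene's own minus strand.
Mef2a, chr7:67372841-67372870: ggcctgactcCTAAAAATAGccccggtgtg
Hdac5, chr11:102230173-102230202: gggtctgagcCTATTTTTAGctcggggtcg
The element began 2 bases before the Mef2a start and 20 bases before the Hdac5 start. Of all 32851 windows, 3.19% held a match, and of 27025 genes, 3.70% had one in any window. A match is a description of the sequence, and binding was not measured. These 2 genes lay on opposite sides in the comparison, with log2 fold changes of 0.44 for Mef2a and -0.21 for Hdac5, neither of which passed edgeR's test.

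For each of the 7, the genes with the nearest pattern over the 6 libraries were sought among 8058 genes with a mean of at least 10 CPM, by the root mean square (RMS) difference of log2 CPM centred on each gene's own mean. Nearest to Mef2a were Fam69a (RMS 0.0536) and Sc5d (0.0617), nearest to Mef2c were Arpc5 (0.0272) and Ppm1f (0.0345), and nearest to Mef2d were Tsta3 (0.0149) and 1810043H04Rik (0.0231). Nearest to Hdac5 were Ccdc157 (0.0203) and Eef1a2 (0.0281), and nearest to Hdac7 were Dmpk (0.0200), the myotonic dystrophy protein kinase gene, and D930015E06Rik (0.0252). Nearest to Hdac4 were Abcc5 (0.0436) and the vinculin gene Vcl (0.0539), and nearest to Hdac9 were Dapk1 (0.0732) and Gpc4 (0.0985). Among the 7 themselves, Mef2d and Hdac4 (0.112) and then Hdac5 and Hdac7 (0.144) were closest, and Mef2a and Hdac9 (0.540) were farthest apart. The RMS difference is small between genes that vary little, so closeness need not mean a shared pattern. The RMS deviation of a gene from its own mean was 0.0682 for Mef2d, 0.145 for Hdac4 and 0.436 for Hdac9.

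Transcripts for proteins that act on these factors were counted next, by role. Of 30 kinases and scaffolds that drive class IIa HDACs out of the nucleus, 11 passed edgeR's test (36.7%, beside 24.4% of all genes tested), 5 higher and 6 lower in cKO-labelled libraries, with a median log2 fold change of 0.00 beside -0.02 over all genes tested. Camk2a, the gene of the CaM kinase II alpha subunit, was at 196, 262 and 340 CPM against 661, 555 and 580 CPM (log2 fold change 1.17 ± 0.196, SE, edgeR, adjusted p = 0.00805). Camk2d, the delta subunit, went the other way, at 108, 135 and 179 CPM against 56.6, 62.1 and 62.0 CPM (-1.22 ± 0.175, adjusted p = 0.00524). The groups did not overlap for either subunit. Calm3, a calmodulin gene, was higher (0.96, adjusted p = 0.00783) in cKO-labelled libraries, and Camk1d was lower (-1.37, adjusted p = 0.00707). The catalytic subunits of AMPK split as well, with Prkaa2 higher (0.73 ± 0.0943, adjusted p = 0.00394) and Prkaa1 lower (-0.54 ± 0.0845, adjusted p = 0.00691) in cKO-labelled libraries. The 14-3-3 zeta gene Ywhaz was lower (-0.37, adjusted p = 0.0172), a call lost without Ctrl 1 and without cKO 1. With total counts alone, 18 of the 30 passed, 5 higher and 13 lower, while over all genes tested 33.5% passed, 4.75% higher and 28.7% lower.

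Among 14 corepressors and partners of class IIa HDACs, 2 were higher and 1 was lower in cKO-labelled libraries, and these 21.4% were near the 24.4% of all genes tested. The median log2 fold change was 0.20. Under total counts 1 was higher and 2 were lower (33.5% of all genes tested passed), and without cKO 2, 5 passed (24.8% of all genes tested). Hdac3, the class I enzyme that supplies deacetylase activity to class IIa complexes, was at 48.8, 51.7 and 53.4 CPM in Ctrl-labelled libraries and at 77.2, 75.0 and 76.6 CPM in the cKO-labelled ones, a log2 fold change of 0.57 ± 0.0679 (SE, edgeR, adjusted p = 0.00328) that passed in each fit with a library left out. Bcor, a corepressor that recruits class IIa HDACs, was higher (0.47, adjusted p = 0.00729), and with total counts its adjusted p was 0.0595. Cabin1, a repressor of MEF2 and calcineurin, was lower (-0.45, adjusted p = 0.0172), a call lost without Ctrl 1, without Ctrl 2 and without cKO 3. Of 7 histone deacetylases outside class IIa, Hdac3 and Hdac2 passed (28.6%, near the 24.4% of all genes tested), and 1 did with total counts alone. Hdac2 was at 47.8, 49.7 and 52.6 CPM against 67.8, 66.4 and 67.3 CPM (0.42 ± 0.0678, adjusted p = 0.0072), and with total counts its adjusted p was 0.119.

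Of 20 coactivators and activating kinases of MEF2, 10 were higher and 1 was lower in cKO-labelled libraries (55.0%, beside 24.4% of all genes tested, 12.6% higher and 11.8% lower), with a median log2 fold change of 0.20. Under total counts 9 passed, 5 higher and 4 lower, where 4.75% of all genes tested were higher and 28.7% lower. Besides coactivators and kinases, the list holds Ppp3ca, Ppp3cb and Ppp3r1, genes of the phosphatase calcineurin, and all of these were higher. Ppp3cb, a catalytic subunit, was at 178, 198 and 245 CPM against 437, 404 and 455 CPM (1.06 ± 0.131, SE, edgeR, adjusted p = 0.00354), and Ppp3r1, the regulatory subunit, differed by 0.85 ± 0.104 (adjusted p = 0.00354). The p38 kinase genes Mapk14 (0.56, adjusted p = 0.00874) and Mapk12 (0.51, adjusted p = 0.0124), whose products phosphorylate MEF2, were higher too. The call on Mapk12 was lost in a test against a fold change of 1.2 and with the mouse number as a block. A further p38 gene, Mapk11, did not pass (0.03, adjusted p = 0.934). Vgll2, a skeletal muscle cofactor of TEAD and MEF2, was the exception, at 232, 148 and 174 CPM against 67.9, 99.1 and 74.1 CPM (-1.20 ± 0.203, adjusted p = 0.00819). The count of 11 fell to 6 without Ctrl 1, to 5 without Ctrl 2, to 6 without cKO 1 and to 6 without cKO 3, where 11%, 12.6%, 12.4% and 10.8% of all genes tested passed. These lists were written with earlier results of the data known, and the part of the fibre marker difference given above was not tested.

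**Figure D4:**
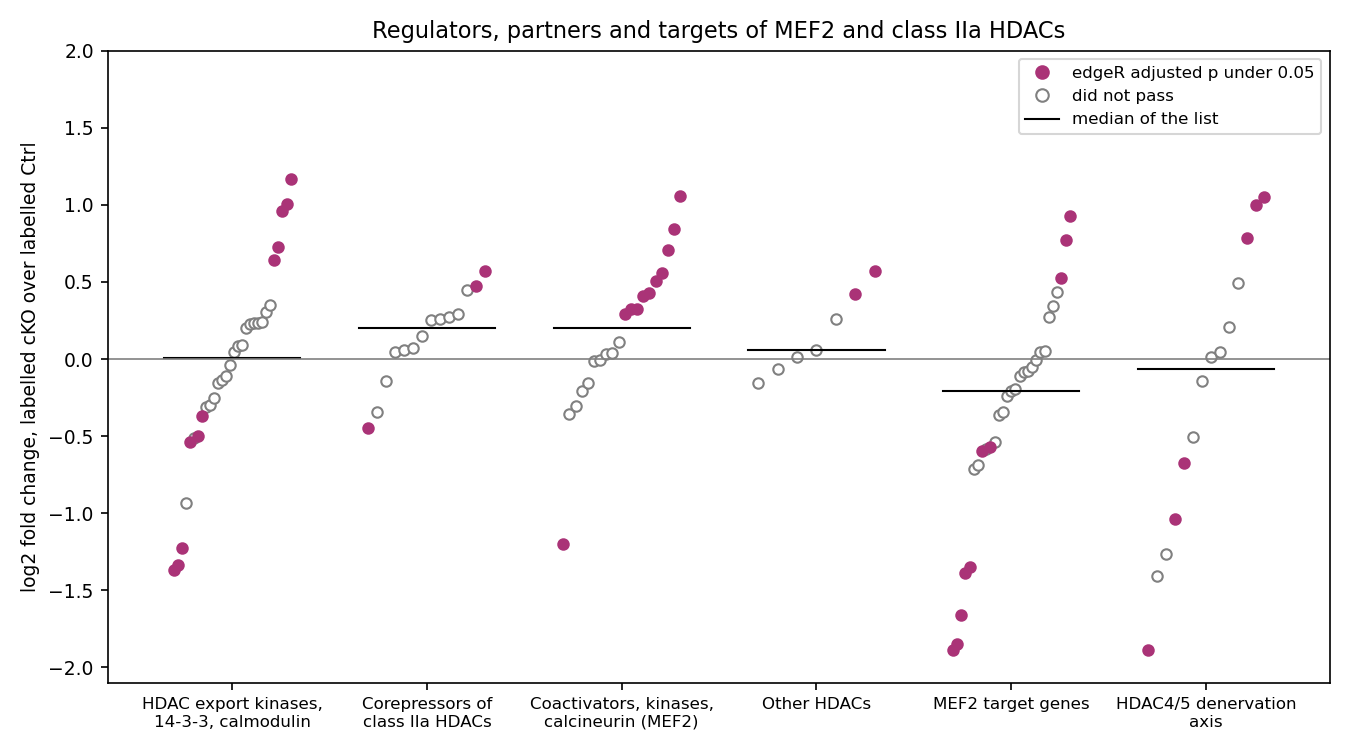
Log2 fold change (y axis, labelled cKO over labelled Ctrl) of each tested gene of 6 lists around MEF2 and the class IIa HDACs, filled where edgeR's adjusted p was under 0.05, with a bar at each list's median. Among coactivators and activating kinases of MEF2, 10 of 20 genes passed above 0 and 1 below it with TMM scaling (5 and 4 with total counts alone), and among MEF2 target genes 3 of 29 passed above 0 and 7 below it (2 and 13 with total counts alone).

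Known MEF2 target genes of muscle went both ways. Of 29 tested, 3 were higher and 7 lower in cKO-labelled libraries (34.5%, beside 24.4% of all genes tested), with a median log2 fold change of -0.21. With total counts alone 15 passed, 2 higher and 13 lower, where 33.5% of all genes tested passed, 4.75% higher and 28.7% lower. With TMM, the 10 passing fell to 6 without Ctrl 1 and to 6 without cKO 3, fits in which 11% and 10.8% of all genes tested passed. Myog, a myogenic regulator whose promoter MEF2 binds, was at 19.6, 22.1 and 20.8 CPM against 6.07, 5.09 and 5.73 CPM, a log2 fold change of -1.89 ± 0.104 (SE, edgeR, adjusted p = 0.00055). Sarcomere and actin regulators Xirp1 (-1.85, adjusted p = 0.00566), Lmod2 (-1.66, adjusted p = 0.00509) and Abra (-1.39, adjusted p = 0.00442) were also lower in cKO-labelled libraries. The targets that were higher, creatine kinase Ckm (0.77, adjusted p = 0.0279), the M-band gene Myom2 (0.93, adjusted p = 0.0204) and the purine nucleotide cycle gene Adssl1 (0.53, adjusted p = 0.0172), each lost the call without Ctrl 1, Ctrl 2, cKO 1 or cKO 3. The fibre marker sums given above differed between the same groups, and their part in these values was not tested.

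In the HDAC4 and HDAC5 axis of denervation, 6 of 14 genes passed (42.9%, beside 24.4% of all genes tested), 3 in each direction, with a median log2 fold change of -0.06, and with total counts alone 2 were higher and 5 lower, where 4.75% and 28.7% of all genes tested were. Lower in cKO-labelled libraries were Myog and the acetylcholine receptor subunits Chrnb1 (-0.67, edgeR, adjusted p = 0.0197, lost without Ctrl 2, cKO 1 or cKO 3) and Chrnd (-1.04, adjusted p = 0.0225, lost without Ctrl 1, Ctrl 2 or cKO 1). Higher were the glycolytic genes Pfkm (1.00, adjusted p = 0.0142, lost without Ctrl 1, Ctrl 2 or cKO 3) and Eno3 (0.79, adjusted p = 0.0258) and the ubiquitin ligase gene Trim63 (1.05, adjusted p = 0.0399), the latter pair lost without Ctrl 1, Ctrl 2, cKO 1 or cKO 3. Dach2, a repressor of Myog that HDAC9 and HDAC4 act on, was at 3.14, 3.26 and 1.48 CPM against 0.959, 1.71 and 0.318 CPM and did not pass (-1.41, adjusted p = 0.108). The count passing was 2 without Ctrl 1, 1 without Ctrl 2, 2 without cKO 1 and 2 without cKO 3, where 11%, 12.6%, 12.4% and 10.8% of all genes tested passed. As for the MEF2 targets, the part of the fibre marker difference in these values was not tested.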

How the data were processed

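Bulk RNA-Seq of GP muscle from 6 mice, 3 labelled Ctrl and 3 labelled cKO, was used. The authors deposited raw read counts per gene, 1 table per mouse, and per the labels and methods the paired-end reads were trimmed with Trimmomatic 0.39 after FastQC 0.11.8, aligned to mm10 with HISAT2 2.1.0 and counted with featureCounts 1.6.2. The annotation, the strand setting and the treatment of reads that match several genes are not given in the sources used here.

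Counts were filtered with filterByExpr, scaled with TMM and tested in R 4.3.3 with edgeR 4.0.16 (glmQLFit and glmQLFTest, Benjamini-Hochberg adjustment over 14180 genes). Standard errors were derived from the F statistic. The authors' fold change limit of 2 was applied where stated. DESeq2 1.42.0 was an alternative. On simulated data edgeR recovered 58 of 100 genes changed by 1 and 85 of 100 changed by 2 on the log2 scale, with 8 other genes called among 14040. Levels per kb used merged GENCODE M21 exons.

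The 7 genes, the pathway lists and the marker lists were chosen with earlier results of these data known. Named genes were Net39, the 7 genes and, from each pathway list, at most 4 in each direction by smallest p among genes at an adjusted p under 0.05 whose groups do not overlap. Also named were the 2 genes nearest in pattern to each of the 7 (prior count of 2). Ppp3ca, Mapk11, Dach2, Col3a1, Lum, Alas2, Cd3e and Cd79a were added after their values were seen. Some genes and 1 marker list that these rules select are not reported here. The exact permutation test was two-sided. Alternatives covered the scaling, the filter, the test, the mouse number as a block, the gene length and each library left out.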

Additional observations from a re-analysis of the deposited data

How the results depend on the processing

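Under 15 alternatives to the edgeR fit, the log2 fold changes of Mef2a, Mef2c, Hdac5, Hdac7 and Hdac9 kept their direction, while those of Mef2d and Hdac4 did not. With total counts alone, Mef2c (-0.48), Hdac4 (-0.36), Hdac5 (-0.47) and Mef2d (-0.23, turned from 0.02) passed the threshold, 14.2% of the genes called were higher in cKO-labelled libraries against 51.7% with TMM, and the median of all genes moved from -0.02 to -0.27. DESeq2's Wald test put Mef2a (0.45) past the threshold, and a test against a fold change of 1.2 took Hdac7 (-0.40) below it and left 1420 of 3454 genes, 5 of 11 coactivators and activating kinases of MEF2, 2 of 6 genes of the denervation axis and 1 of 2 other HDACs. With the mouse number as a replicate block, 1899 genes passed, among them 6 coactivators and activating kinases and 6 MEF2 targets in place of 11 and 10, and no call on the 7 genes changed. Deviations from the group mean of same-numbered mice correlated at r = 0.0835, -0.215 and -0.00201 for mice 1, 2 and 3. With 3 libraries per group, these values cannot decide whether the numbers mark a pairing. With 1 library left out, 1560 to 3585 genes passed. These fits gave 0.34 to 0.63 for Mef2a, -0.30 to -0.16 for Mef2c, -0.034 to 0.062 for Mef2d (-0.0033 without Ctrl 2), -0.17 to 0.011 for Hdac4, -0.28 to -0.14 for Hdac5, -0.46 to -0.35 for Hdac7 and -0.69 to -0.07 for Hdac9. The share of Mef2c in the summed MEF2 level, 61.5% and 55.3% in Ctrl- and cKO-labelled libraries, became 55.9% and 49.8% with the length of 1 transcript per gene (chosen after seeing the data) and 75.3% and 68.9% with no division by length. The share thus depends on the length used as divisor, and the cause of its difference between the groups was not tested. Of 29 pathway genes selected by the rule for names, 19 passed in every fit with a library left out, 10 were lost in the test against a fold change of 1.2 and 7 with the replicate block. Bcor, Hdac2, Adssl1 and Trim63 were lost with total counts, and Trim63 also in the robust fit. Depth was at least 33860001 counts in every library, and the 3 mice per group limit what can be detected.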

Other observations

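Markers of the other cell types of GP muscle were measured beside MEF2 and the class IIa HDACs. Summed CPM of 7 fibro-adipogenic progenitor markers overlapped between the labelled groups, at 1339 to 1580 in Ctrl-labelled and 921 to 1813 in cKO-labelled libraries, and their log2 fold changes ran from -1.06 to 0.29 with a median of 0.08. By edgeR's test 2 of the 7 (28.6%, near the 24.4% of all genes tested) passed, both lower in cKO-labelled libraries, the collagen gene Col3a1 (log2 fold change -1.06, adjusted p = 0.0281) and the lumican gene Lum (-0.72, adjusted p = 0.0145). The sum of 5 adipocyte markers was 15.1 to 49.3 against 17.7 to 52.7 CPM, and that of 3 satellite cell markers was 3.88 to 4.10 against 3.64 to 5.999 CPM. The 4 haemoglobin genes searched were listed at 0 counts in every library, while Alas2, the haem synthesis gene of red blood cell precursors, was at 3.97 to 8.76 against 5.56 to 7.18 CPM. Of 10 immune markers, the T cell gene Cd3e and the B cell gene Cd79a were too low to be tested.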
